A study of Homo sapiens with 6 samples.

Results

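The BCL2 family decides whether a cell's mitochondria release the proteins that start apoptosis, and 10 of its genes were described here by their transcript level in the human melanoma cell line A375. The 10 genes were found by an exact match of their symbols among the 28395 genes of the authors' deposited table, and each symbol occurred in 1 row. Cells were cultured for 6 h with 0.01% olive oil (OLO) or with 0.01% ozonated olive oil (OZO), and each of the 2 groups had 3 RNA-seq libraries. OLO is the precursor oil of OZO and served as the control, and the labels give the genotype of both groups as wild type. The values below are the authors' mean over all 6 libraries of both groups. They hold no spread and do not separate OZO from OLO, so no comparison of the oils is given. The levels, orders and ratios are those of both oils averaged, and those under each oil alone are unknown.

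Anti-apoptotic members hold their pro-apoptotic relatives in check at the mitochondrial outer membrane. BAX-type members form pores in that membrane once they are active, and BH3-only members are the stress sensors that either occupy the anti-apoptotic proteins or activate the BAX-type ones. Transcript levels say nothing of protein, and several of these proteins, MCL1 and PMAIP1 among them, are known to turn over fast.

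Each mean was deposited as log2 CPM, a read count scaled to the size of its library, and it was divided by the length of the gene's longest transcript, so that levels of different genes can be set side by side as log2 CPM per kb. From the lowest values of the table a library held 18409902 counted fragments on the geometric mean, and from this a mean number of reads per library was derived for each gene. All 10 members had at least 10 such implied reads, a level reached by 13773 genes. Their median level was 2.89 log2 CPM per kb, and the median of all genes with at least 10 reads and a known length was 2.68. Of the 10 members, 5 lay above that median and 5 below it.

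The label of the cells was first set against marker genes. Over the whole table, 13773 of 28395 genes had at least 10 implied reads. Of 10 melanocyte lineage and melanoma genes, 7 had at least 10 implied reads, with SOX10 at 919 and MITF at 499 reads. Per longest transcript, only SOX10 of these 10 lay above the median of the genes with at least 10 reads. The median percentile of the 10 was 17.8. Pigment genes were low: TYR had no read, DCT 4.74 and PMEL 5.75 reads, while TYRP1 with 11.0 and MLANA with 36.6 passed 10 reads. All 4 markers of dedifferentiated melanoma were above 10 reads, led by AXL with 4915, and 2 of the 4 lay above the same median. Of 6 keratinocyte markers, KRT10 with 469 reads and KRT14 with 77.5 reads passed 10 reads, while KRT1 had no read and KRT5, TP63 and CDH1 had 1.56, 2.79 and 1.34. Of 5 fibroblast markers 3 passed, with PDGFRB at 102, LUM at 87.6 and COL1A1 at 22.3 reads. Of 3 endothelial markers 1 passed, PECAM1 with 19.5 reads, and of 4 leukocyte markers 1 passed, CD14 with 14.7 reads. The defining leukocyte gene PTPRC had 1.07 reads.

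Among the anti-apoptotic members, MCL1 was far above the others. MCL1 (chromosome 1, 150560895 to 150579738, minus strand) had a level of 7.88 log2 CPM per kb from 19698 implied reads, and 98.9% of the genes with at least 10 reads lay below it. BCL2L1 (chromosome 20, 31664452 to 31723989, minus strand), which encodes BCL-XL, had 3.39 log2 CPM per kb from 627 reads and lay at percentile 61.9. BCL2 (chromosome 18, 63123346 to 63320128, minus strand), the founding member of the family, had 1.51 log2 CPM per kb from 390.5 reads and lay at percentile 34.0. The MCL1 level was 22.5-fold that of BCL2L1 and 82.6-fold that of BCL2, and it made up 94.6% of the summed level of the 3 genes. BCL2L1 made up 4.21% and BCL2 1.15% of that sum.

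The size of these ratios depended on the gene length used, and their direction did not. Over 4 length definitions the ratio of MCL1 to BCL2L1 ran from 20.5 to 27.5, and that of MCL1 to BCL2 from 38.6 to 102. The ratio of BCL2L1 to BCL2 was 3.68 and ran from 1.40 to 4.82. BCL2 has the longest transcript of the 10 members, 7461 bases, of which coding bases are at most 804.

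**Figure D1:**
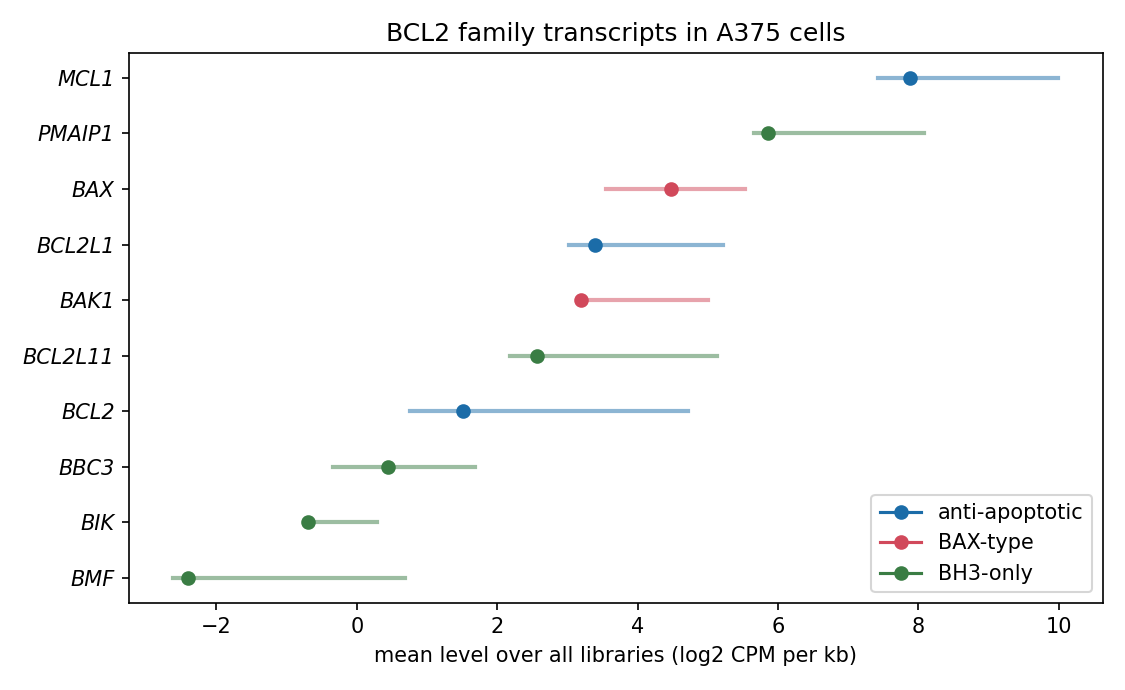
Mean level over all libraries of the 10 BCL2 family genes, in log2 CPM per kb on the horizontal axis, ordered by level and coloured by role. Points use the longest transcript, and bars span the lowest to the highest value over 4 length definitions, not a spread between libraries; MCL1 lies highest at 7.88 and BMF lowest at −2.40.

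The BAX-type members were both of middle to high level. BAX (chromosome 19, 48954815 to 48961798, plus strand) had a level of 4.47 log2 CPM per kb from 555 implied reads and lay at percentile 79.3. BAK1 (chromosome 6, 33572547 to 33580293, minus strand) had 3.20 log2 CPM per kb from 373 reads and lay at percentile 58.7. BAX was 2.42-fold above BAK1, and this ratio ran from 1.27 to 4.06 over the length definitions. Both genes therefore lay above the median of the genes with at least 10 reads, and both lay below MCL1.

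The BH3-only members spread over the widest range. PMAIP1 (chromosome 18, 59899996 to 59904305, plus strand), which encodes NOXA, a protein that binds MCL1, was the second highest of all 10 members with 5.86 log2 CPM per kb from 2035 reads. It lay at percentile 92.9 and made up 87.8% of the summed level of the 5 BH3-only genes. BCL2L11 (chromosome 2, 111119378 to 111168444, plus strand), which encodes BIM, a protein that ERK signalling marks for degradation, had 2.57 log2 CPM per kb from 565 reads and lay at percentile 48.4. PMAIP1 was 9.80-fold above BCL2L11, and between 7.72-fold and 11.1-fold over the length definitions.

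The other three BH3-only genes were low. BBC3 (chromosome 19, 47220822 to 47232766, minus strand), which encodes PUMA, a protein that binds all of the anti-apoptotic members, had 0.45 log2 CPM per kb from 45.8 reads and lay at percentile 22.9. BIK (chromosome 22, 43110750 to 43129712, plus strand), whose protein sits largely at the endoplasmic reticulum, had −0.70 log2 CPM per kb from 10.3 reads and lay at percentile 13.2. BMF (chromosome 15, 40087890 to 40108892, minus strand), whose protein is tied to the cytoskeleton in healthy cells, had −2.40 log2 CPM per kb from 15.9 reads and lay at percentile 2.64. PMAIP1 exceeded BBC3 by 42.7-fold, the lowest ratio over the length definitions, and the highest was 84.4-fold. At 10.3 and 15.9 reads, BIK and BMF rest on few fragments, and their order to each other turned with the length: BIK was 3.24-fold above BMF per longest transcript, but the ratio was 0.755 with coding length.

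Ordered per length, the members ran from MCL1 through PMAIP1, BAX, BCL2L1, BAK1, BCL2L11, BCL2, BBC3 and BIK to BMF. MCL1, PMAIP1, BAX, BCL2 and BBC3 kept their places under each of the 4 length definitions. BCL2L1, the next above BAK1 by 1.14-fold, held place 4 or 5, and BAK1 held places 4 to 6. BCL2L11 held place 5 or 6. With no length correction the order changed: BCL2L1 held place 3, BCL2L11 place 4, BAX place 5, BCL2 place 6 and BAK1 place 7. BMF then lay above BIK, while MCL1, PMAIP1 and BBC3 kept their places. Per longest transcript MCL1 was 4.04-fold above PMAIP1. Without a value per library, none of these neighbours can be compared with the spread between libraries.

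**Figure D2:**
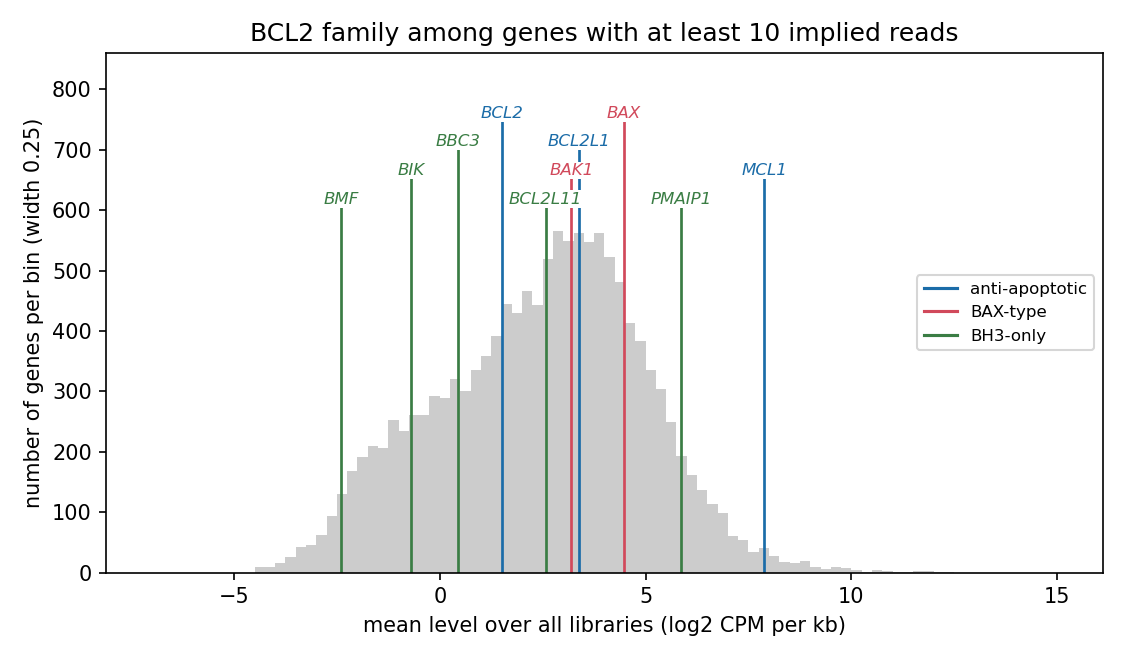
Histogram of the mean level of the genes with at least 10 implied reads and a known length, in log2 CPM per kb, with the 10 BCL2 family genes as vertical lines coloured by role. MCL1 and PMAIP1 lie in the upper tail at 7.88 and 5.86, while BIK and BMF lie in the lower one at −0.70 and −2.40.

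Exons of other genes overlap those of several members. The study's methods name a directional library kit, but whether the authors counted by strand is not stated. BCL2L1 shared 1735 exonic bases, 41.3% of its merged exons, with the long non-coding RNA ABALON on the opposite strand. BCL2L11 shared 727 bases, 10.8% of its merged exons, with MIR4435-2HG on the opposite strand, which had 465 implied reads of its own. BMF shared 461 bases, 8.46%, with the opposite BMF-AS1. Neither ABALON nor BMF-AS1 was matched by symbol among the authors' genes, so no reads can be given for them. MCL1 shared 43 bases, 0.691%, with ADAMTSL4 on the opposite strand and 328 bases, 5.27%, with ADAMTSL4-AS1 on its own strand, and these had 60.1 and 6.36 reads. The share of such reads in the levels was not tested.

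Other genes of the family were counted from a list. Of 13 further BCL2 family genes 8 had at least 10 implied reads, and their median level was 1.76 log2 CPM per kb. The mitophagy receptors BNIP3 and BNIP3L were highest, with 5.96 and 5.07 log2 CPM per kb, and both lay below MCL1. Per longest transcript BNIP3 lay above PMAIP1 at 5.86, and their order turned with the union of exons, which gave 5.56 for BNIP3 and 5.66 for PMAIP1. BCL2L2, which encodes the anti-apoptotic BCL-W, had 3.32 log2 CPM per kb from 655 reads, close to BCL2L1 at 3.39. The order of BCL2L2 and BCL2L1 turned with coding length, which gave 5.94 for BCL2L2 and 5.21 for BCL2L1. BCL2A1, an anti-apoptotic gene that MITF is known to drive in melanocytes, had 6.47 reads, and BCL2L10 had 0.497. Among the remaining BH3-only genes BID had 2.69 and BAD 1.76 log2 CPM per kb, while HRK had 1.07 reads. BOK, a relative of BAX and BAK1, had −0.88 log2 CPM per kb from 25.8 reads. BCL2L13 and BCL2L12 had 3.93 and 3.49 log2 CPM per kb, and BCL2L14 and BCL2L15 had 6.02 and 9.31 reads.

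The 15 listed genes of the mitochondrial pathway all had at least 10 implied reads, and 12 of them lay above the median of the genes with at least 10 reads. Their median was 4.49 log2 CPM per kb, against 2.89 for the 10 members. The highest were VDAC1 with 7.76, CYCS with 6.68 and VDAC2 with 6.67 log2 CPM per kb, which encode channel proteins of the outer membrane and cytochrome c. The lowest were BIRC3 with 0.39, CASP9 with 1.01 and HTRA2 with 2.55 log2 CPM per kb. The death receptor list had a median of 2.70 log2 CPM per kb, with all 9 genes at 10 reads or more and 5 above the median of the genes with at least 10 reads. In it TNFRSF10B, a TRAIL receptor, had 5.04, FADD 4.18 and CASP8 3.57 log2 CPM per kb, while TRADD had −0.23, CASP10 0.12 and CFLAR 0.18. The implied reads of TRADD, CASP10 and CFLAR were 28.2, 113 and 304, and the longest transcript of CFLAR has 14612 bases. With coding length TRADD had 0.74, CASP10 1.97 and CFLAR 3.52 log2 CPM per kb, against 4.43 for CASP8.

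All 7 reported upstream regulators of the members had at least 10 implied reads. Among them MDM2, a ubiquitin ligase, had 5.29 log2 CPM per kb. The stress factors ATF4 and DDIT3 had 7.77 and 4.89 log2 CPM per kb. FOXO3 had 2.47, E2F1 3.76, MYC 0.57 and TP73 −0.67 log2 CPM per kb.

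**Figure D3:**
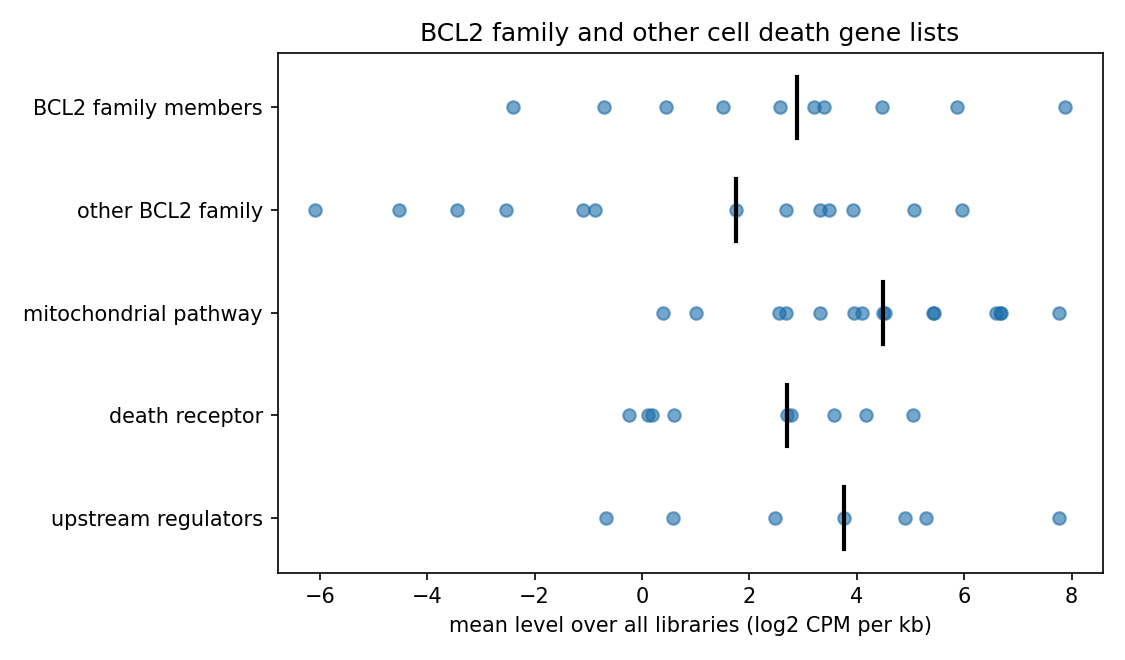
Mean level over all libraries of each gene in 5 lists, in log2 CPM per kb, with a point per gene and a black bar at the list's median. The medians are 2.89 for the BCL2 family members, 1.76 for the other family genes, 4.49 for the mitochondrial pathway, 2.70 for the death receptor list and 3.76 for the 7 upstream regulators.

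The start sites of the members were then described from RefSeq (GRCh38.p14), which gave 10 windows of 300 bases for 8 of the members. MCL1 and BIK had none. The windows of BCL2 and BCL2L11, and the second window of BCL2L1 and of BMF, lay wholly inside the annotated gene. They are included in the counts below. The GC content of these windows ran from 48% to 74.7%, with a median of 63.2%, against 61.7% over 24909 windows. The palindromic E box CACGTG was in 2 of the 10 windows, those of BAX and BBC3, and in 8.10% of all windows, with 4 copies in BAX. The GC box GGGCGG was in 6 of the 10 and in 53.8% of all windows, and CCAAT was in 5 of the 10 and in 34.7%. TATAAA was in 1 of the 10 and in 9.72%, and TGACGTCA in 0 of the 10 and in 2.20%. Both strands were read for every motif.

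The bases before the annotated gene are shown for PMAIP1 and BAX, the highest members with a window, and for BMF, the lowest. Capitals mark the motifs above on either strand. They lie at chr18:59899746-59899995 on the plus strand, chr19:48954625-48954814 on the plus strand and chr15:40108893-40109129 on the minus strand.
PMAIP1: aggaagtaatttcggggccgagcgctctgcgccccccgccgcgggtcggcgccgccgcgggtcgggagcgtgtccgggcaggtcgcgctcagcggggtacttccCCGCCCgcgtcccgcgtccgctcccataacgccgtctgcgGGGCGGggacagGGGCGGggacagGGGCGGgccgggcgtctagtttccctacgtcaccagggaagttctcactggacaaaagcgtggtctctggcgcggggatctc
BAX: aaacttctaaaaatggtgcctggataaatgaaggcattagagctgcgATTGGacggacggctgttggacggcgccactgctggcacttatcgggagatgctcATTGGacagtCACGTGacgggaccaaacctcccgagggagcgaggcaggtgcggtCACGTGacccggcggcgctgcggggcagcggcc
BMF: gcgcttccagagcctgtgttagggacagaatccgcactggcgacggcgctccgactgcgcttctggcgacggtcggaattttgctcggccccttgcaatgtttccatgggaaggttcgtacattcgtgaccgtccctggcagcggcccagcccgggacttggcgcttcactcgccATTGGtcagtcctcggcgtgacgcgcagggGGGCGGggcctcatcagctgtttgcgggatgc
The stretch of PMAIP1 held 4 GC boxes, 36 CpG and 72.8% GC. That of BMF held 1 GC box, 1 CCAAT box, 24 CpG and 64.6% GC, and BMF lay at the other end of the order of levels. BMF also had another window, at chr15:40106917-40107216 inside the annotated gene, which is not shown. It held 1 CpG, 50.3% GC and none of the motifs. The stretch of BAX held 2 E boxes, 2 CCAAT boxes and 17 CpG with 61.1% GC. These matches are letters in a window and no evidence of binding.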

How the data were processed

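RNA-seq of A375 cells under OLO or OZO gave 6 libraries, 3 per group, grouped by their titles. Per the submitters' processing notes and the study's methods, reads were aligned to hg38 with HISAT2 2.1.0, counted with featureCounts 2.1.1 and compared with limma-voom 3.58.1. The deposited log2 values used here are the authors' log2 CPM averaged over the 6 libraries, and voom adds 0.5 to each count before the logarithm. Normalization factors, strand setting and low-count filter are not given in the sources used here. The other deposited columns hold the authors' own comparison of treated with control cells (fold change, t, p-value, adjusted p-value and log odds), and these columns were not used. OZO was therefore not compared with OLO here. No value per library was analysed, so no test or standard deviation was computed.

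The lowest mean was read as no read in any library, which gives the geometric mean library size. In that reading 11518 of 11518 low genes (products under 2000) fell on an odd whole number within 0.01. Of these, the 7012 genes at the lowest mean give 1 by construction and could not fail, so only the rest bear on the reading. Implied reads are geometric means with the 0.5 taken off, and the size of each library is unknown. The arithmetic was checked on counts simulated from the implied reads themselves, with the same 0.5 added. Such a check cannot tell whether the lowest mean stands for no read in any library. Lengths come from GENCODE 44 (GRCh38), matched by Ensembl identifier for 25497 genes. The authors' gene models may differ from it. A percentile is the percent of genes with at least 10 implied reads and a length, 13313 genes, that lie below. The members and gene lists were chosen with earlier results of these data known. Named genes are all members, all further family genes and upstream regulators, and the 3 highest and 3 lowest of the other two lists. 1 gene of the upstream list is not reported here. Python 3.11.15, numpy 2.4.6 and pandas 2.3.3 were used.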

Additional observations from a re-analysis of the deposited data

How the results depend on the processing

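The median level of the 10 members, 2.89 log2 CPM per kb, became 2.61 with the union of exons and 5.07 with coding length, and it was 4.66 log2 CPM with no length correction. With the canonical transcript, a choice added after the data were seen, it was 2.91. The median percentile, 53.6 among genes with at least 10 implied reads, became 68.7 among genes with a read and 75.7 among all genes, because weakly read and unread genes are then counted below the members. The median of 473 implied reads was 472.8 with 0.5 taken off and 473.3 with it left in, a difference set by that 0.5. No paired analysis was possible because the values used are means over all libraries. For the same reason the tests between OZO and OLO, their other normalizations and filters, and leaving out each replicate were not run. How far a single library sets any level is unknown, and the means cover both oils.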
